A study of Homo sapiens with 8 samples.

Results

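The Notch genes followed here were 10 genes, 3 receptors (NOTCH1, NOTCH2, NOTCH3), 4 ligands (DLL1, DLL3, JAG1, JAG2) and 3 target genes (HES1, HES4, HEY1), chosen by their symbols among 19472 genes in the crowding table and 19551 genes in the ETV4 KD table. All 10 were found in both tables, and all 10 passed the filter on low counts in both. RNA came from H9 cells, an established human embryonic stem cell (hESC) line, kept undifferentiated on Matrigel in mTeSR1 or TeSR-E8 medium. In the crowding experiment, 2 low-density libraries (named small in the labels) were compared with 2 high-density libraries (named crowded), in which the cells could attach only to small islands of Matrigel. In the ETV4 KD experiment, 2 libraries with a control hairpin (shControl, labelled Ctrl) were compared with 2 libraries with a hairpin against ETV4 (shETV4, labelled ETV4 KD), a transcription factor of the PEA3 group of ETS proteins. Every group is this single line, the ETV4 transcript was reduced and not removed, and the labels do not give the hairpin used or say that replicates were separate cultures, so p-values measure the spread between these libraries.

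Notch signalling works between touching cells. A ligand of the Delta or Jagged type on one cell binds a receptor on its neighbour, the receptor is cut by an ADAM protease and by gamma-secretase, and the freed intracellular domain joins the DNA-binding protein RBPJ and a Mastermind protein to switch on genes of the HES and HEY families. HES and HEY proteins are repressors, best known for holding back proneural genes, and in the embryonic nervous system signal-sending cells carry ligand while signal-receiving cells carry HES proteins.

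The libraries held 50359703 to 62410168 reads on genes. ETV4 itself was listed at 90.8 and 95.1 FPKM (fragment counts scaled by transcript length and by the mapped reads of the library) in shControl and at 45.6 and 40.9 FPKM in shETV4, a log2 fold change of -1.15. In the crowding experiment ETV4 was at 73.2 and 72.6 FPKM at low density and at 54.2 and 53.9 FPKM at high density. It was lower there too, without a call (log2 -0.49; edgeR quasi-likelihood, adjusted p = 9.42e-07). All 10 pluripotency markers were present in both tables, with summed levels of 3483 to 3730 FPKM in the crowding experiment and 2962 to 3158 FPKM in the ETV4 KD experiment. Within these sums, DNMT3B and TDGF1 were called lower (log2 -0.82 each) and LIN28A higher (log2 0.51) after ETV4 KD, and no marker was called after crowding. Mesendoderm markers summed to at most 1.22 FPKM in any library, and all of those in the tables stayed under 1 FPKM. FOXA2 of this list was called lower after crowding (log2 -2.85), from 26 and 48 reads at low density and 4 and 7 at high density. TBXT (log2 0.77) and MIXL1 (log2 -0.38) were not called there. The neuroectoderm list summed to 88.2 to 89.2 FPKM at low density and 66.6 to 75.2 FPKM at high density, and to 46.8 to 52.4 FPKM in shControl and 74.4 to 83.3 FPKM in shETV4. With crowding the sum followed its highest gene NES, at 78.1 and 76.7 FPKM at low density and 56.7 and 53.0 FPKM at high density. NES was called lower there (log2 -0.55). OTX2 and SOX1 went the other way with crowding. OTX2 was at 10.7 and 11.2 FPKM at low density and 18.2 and 13.4 FPKM at high density, without a call, and SOX1 was called higher at 0.0666 FPKM or less. LHX2 was called lower at 0.121 FPKM or less, and DACH1 (log2 -0.45) and ZIC1 (log2 -0.10) were below 0 without a call. PAX6 did not pass the filter on low counts. After ETV4 KD OTX2 was called higher (log2 2.73), from a mean of 2.7 FPKM in shControl to 17.6 FPKM in shETV4. NES went from a mean of 46.6 FPKM to 60.9 FPKM, without a call (log2 0.39), so both genes raised the sum. In all, 5 of the 7 neuroectoderm markers analysed after crowding and 6 of the 8 analysed after ETV4 KD were under 1 FPKM in every library. The endothelium list was led by KDR and analysed without PECAM1 and EMCN, and in the crowding experiment also without CDH5. It summed to 27.7 to 28.6 FPKM at low density, 32.6 to 36.9 FPKM at high density, 34.5 to 35.0 FPKM in shControl and 20.5 to 27.3 FPKM in shETV4. TEK of this list went against the sum. It went from a mean of 3.87 FPKM at low density to 1.20 FPKM at high density and was called lower (log2 -1.75). It went from 4.86 FPKM in shControl to 6.14 FPKM in shETV4, without a call. After ETV4 KD, KDR (log2 -0.75) and CDH5 (log2 -2.56, at 0.0997 FPKM or less) were called lower. The extraembryonic list, led by KRT7, summed to 2.26 to 3.38 FPKM. The part of these lists in the Notch values below was not tested, and in bulk RNA fewer cells of a type and less RNA per cell cannot be told apart.

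NOTCH3 was the highest of the 10 genes in every group, with means of 20.2 FPKM ± 0.139 (SD, n = 2) at low density, 20.8 FPKM ± 1.40 at high density, 12.4 FPKM ± 0.0672 in shControl and 11.0 FPKM ± 0.00746 in shETV4. At low density NOTCH3 was followed by NOTCH1, NOTCH2, HES1, DLL3, JAG1 and JAG2, each separated from the next in both libraries, and then by HEY1, DLL1 and HES4, where HEY1 overlapped with DLL1 and DLL1 with HES4. At high density the first 4 places were the same, DLL3 and JAG1 overlapped, and DLL1 and HES4 stood next, above JAG2 and HEY1. In shControl the receptors were again highest, NOTCH2 and NOTCH1 overlapped, JAG1 came next, DLL3 and HES1 overlapped below it, and JAG2, HEY1, HES4 and DLL1 closed the order, with HEY1 and HES4 overlapping. In shETV4 the order was NOTCH3, NOTCH1, then JAG1, NOTCH2 and HES1 with each overlapping the next, then DLL3, JAG2 and the overlapping DLL1, HES4 and HEY1. The plot of FPKM by library shows these levels for each library. The tables were normalized separately by the authors, so a level is set against another only within an experiment.

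**Figure D1:**
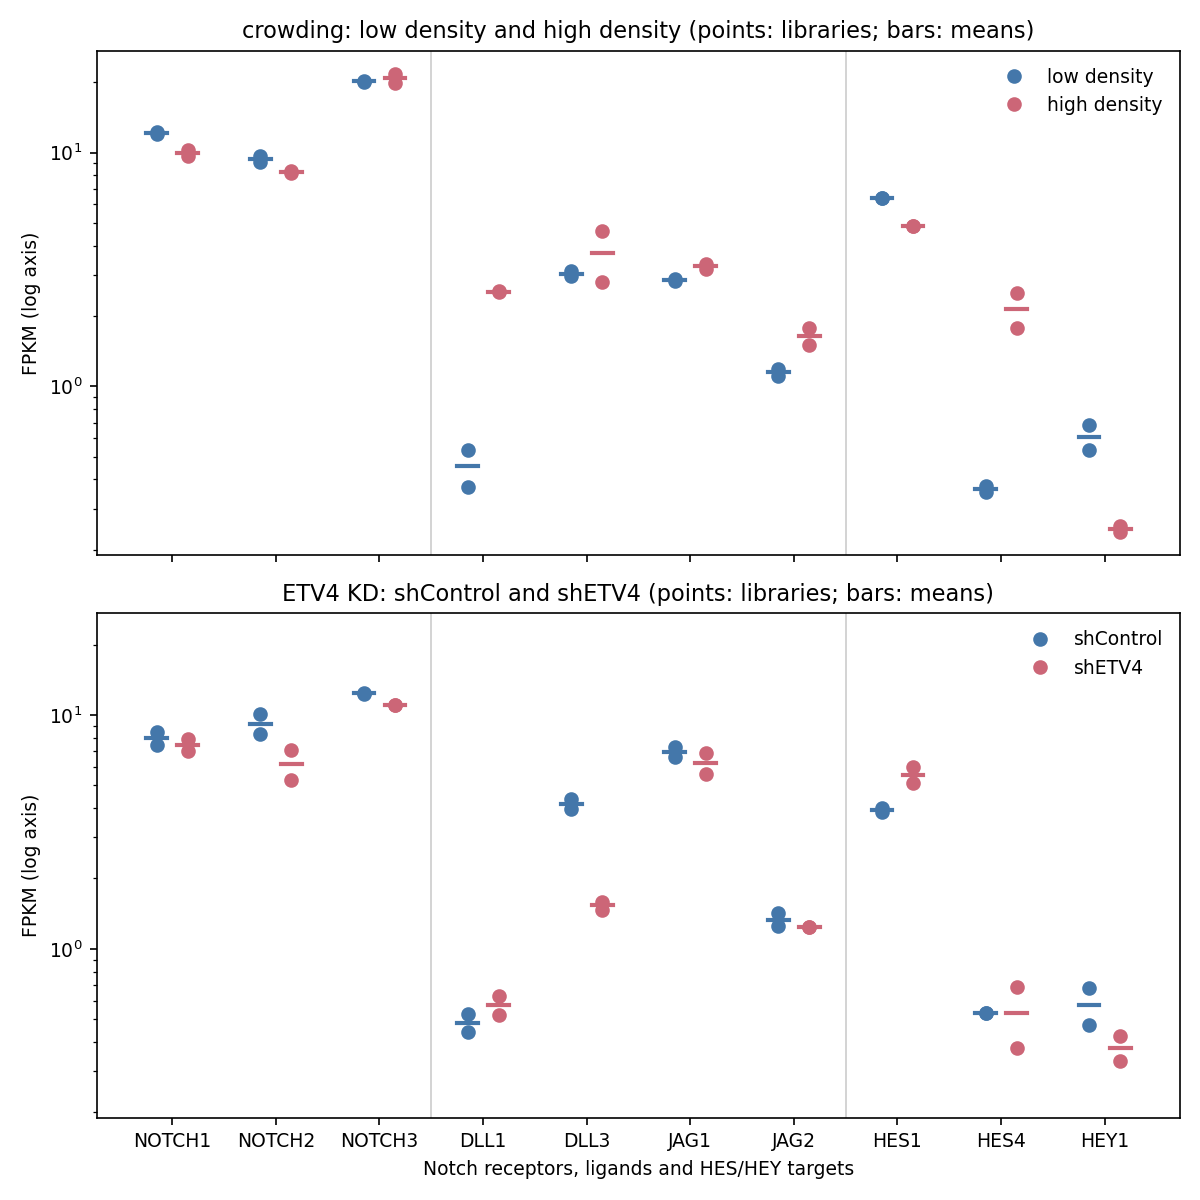
FPKM of the 10 Notch genes on a log axis, low density and high density above, shControl and shETV4 below. Points are libraries, bars are group means, and vertical lines part receptors, ligands and targets. DLL1 and HES4 stand apart between densities and not between hairpins, whereas DLL3 stands apart between hairpins and not between densities.

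Crowding raised the ligand DLL1 and the target HES4 and lowered the target HEY1, and left the fold of the 3 receptors under the threshold. Genes were called with edgeR's quasi-likelihood test where the Benjamini-Hochberg adjusted p was below 0.05 and log2 expression differed by more than 0.5 in size, which are the study's thresholds for differentially expressed genes (DEGs). By that rule 3 of the 10 genes were called, 2 higher and 1 lower, where 16.1% of all 17672 genes tested were called, 10.7% higher and 5.47% lower. At an adjusted p below 0.05 with any fold, 7 of the 10 passed, 3 higher and 4 lower, against 39.7% of all genes. The median log2 fold change of the 10 genes was 0.06, and that of all genes tested was 0.00.

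Of the receptors, NOTCH1, which has broad roles from blood to brain, was at 12.0 and 12.2 FPKM at low density and at 9.70 and 10.2 FPKM at high density. No high-density value reached the low-density values, and the log2 fold change was -0.34 (SE 0.057; edgeR quasi-likelihood, Benjamini-Hochberg adjusted p = 8.64e-05). NOTCH2, the other broadly expressed receptor, was at 9.67 and 9.12 FPKM at low density and at 8.35 and 8.14 FPKM at high density. The groups did not overlap here either, and the log2 fold change was -0.25 (SE 0.058; edgeR quasi-likelihood, adjusted p = 0.00154). Both changes passed the adjusted p and fell short of the fold that a DEG requires. With limma on log2(FPKM + 0.5), NOTCH2 did not pass the adjusted p (log2 -0.18, adjusted p = 0.0610, and 0.0822 without a minimum on mean FPKM). With a library left out, its log2 fold change by edgeR was -0.30 to -0.21. NOTCH3, known best from vascular smooth muscle, was at 20.2 and 20.0 FPKM at low density and at 21.7 and 19.8 FPKM at high density. Its groups overlapped, with a log2 fold change of -0.01 (95% interval -0.13 to 0.10), a sign that turned with the unit (0.04 with limma on log2 FPKM). The receptors summed to 41.9 and 41.4 FPKM at low density and to 39.8 and 38.2 FPKM at high density. Groups that do not overlap are no rarity with 2 libraries each, since this held for 70.2% of all genes tested.

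Of the ligands, DLL1 changed most. DLL1, a Delta ligand that activates receptors on the neighbouring cell and is known from the neural tube and the somites, was at 0.536 and 0.372 FPKM at low density and at 2.53 and 2.55 FPKM at high density. These values came from 117 and 98 reads at low density and 600 and 691 reads at high density, whose exact Poisson 95% intervals (counting error only) together ran from 79.6 to 140 reads and from 553 to 745 reads. The groups were far apart, the high-density libraries were close to each other, and the fold was 5.39 (log2 2.43, SE 0.17; edgeR quasi-likelihood, adjusted p = 9.47e-10). DLL1 shares 370 exonic bases with FAM120B, a gene on the opposite strand, and it is not stated whether reads were counted by strand. FAM120B was at 4.53 and 4.42 FPKM at low density and 4.48 and 4.52 FPKM at high density, with a log2 fold change of -0.05.

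The other Delta ligand, DLL3, did not separate the densities. DLL3, which acts inside the cell and dampens Notch signalling, was at 2.96 and 3.11 FPKM at low density and at 2.80 and 4.61 FPKM at high density. One high-density library lay below both low-density libraries and the other above both, so the log2 fold change of 0.21 (SE 0.18; edgeR quasi-likelihood, adjusted p = 0.387) rested on high-density replicate 2, without which it was -0.16. The Jagged ligand JAG1, known from the ear and the bile ducts, was at 2.87 and 2.83 FPKM at low density and at 3.34 and 3.19 FPKM at high density. Both high-density values were above both low-density values, and the log2 fold change was 0.14 (SE 0.081; edgeR quasi-likelihood, adjusted p = 0.195). JAG2, its close relative, was at 1.11 and 1.19 FPKM at low density and at 1.50 and 1.77 FPKM at high density. Again the groups did not overlap, and the log2 fold change of 0.46 (SE 0.12; edgeR quasi-likelihood, adjusted p = 0.00564) stayed under the fold threshold. Without low-density replicate 1 or 2 it was 0.41 or 0.51, and without high-density replicate 1 or 2 it was 0.56 or 0.34. With limma on log2(FPKM + 0.5) without a minimum on mean FPKM, JAG2 did not pass the adjusted p (0.0550).

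Crowding also shifted the ligand makeup of the cells. The 4 ligands summed to 7.47 and 7.51 FPKM at low density and to 10.2 and 12.1 FPKM at high density. DLL1 took 7.18% and 4.95% of that sum at low density and 24.9% and 21.1% at high density. JAG1 took 38.4% and 37.8% at low density and 32.8% and 26.3% at high density, and JAG2 kept 14.6% to 15.8% in all 4 libraries. These shares are a description of FPKM sums, with no test.

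**Figure D2:**
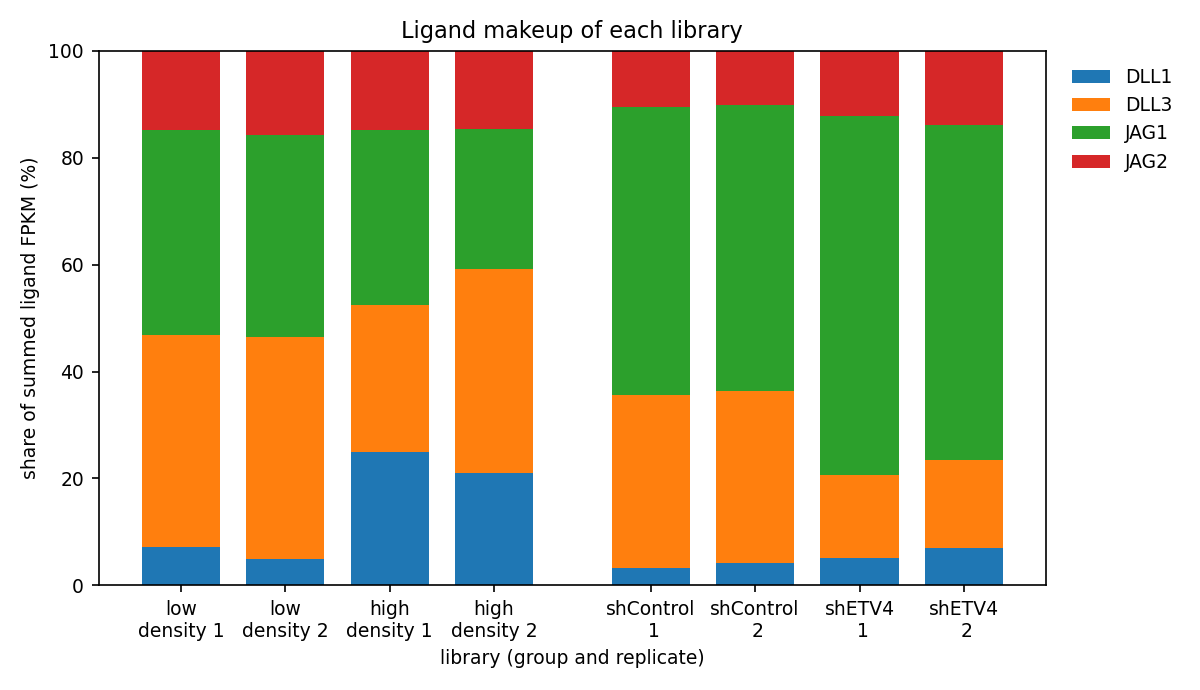
Share of the summed FPKM of DLL1, DLL3, JAG1 and JAG2 in each of the 8 libraries, in percent, as stacked bars. DLL1 takes 4.95% to 7.18% at low density and 21.1% to 24.9% at high density, and DLL3 takes 32.1% to 32.3% in shControl and 15.6% to 16.5% in shETV4.

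The 3 targets moved apart after crowding. HES1, the HES gene most widely used as a readout of Notch and a repressor of its own gene, was at 6.37 and 6.39 FPKM at low density and at 4.85 and 4.87 FPKM at high density. The replicates were nearly equal and the groups apart, with a log2 fold change of -0.45 (SE 0.11; edgeR quasi-likelihood, adjusted p = 0.00292), short of the fold threshold. HES4, a relative of HES1 studied less because mice lack it, was at 0.354 and 0.373 FPKM at low density and at 1.77 and 2.52 FPKM at high density. Its reads were few, 20 and 25 at low density (exact Poisson 95% intervals 12.2 to 30.9 and 16.2 to 36.9) and 104 and 167 at high density (85.0 to 126 and 143 to 194). Even the nearest of these intervals did not touch, and the fold was 5.39 (log2 2.43, SE 0.30; edgeR quasi-likelihood, adjusted p = 2.06e-06). HEY1, a HEY repressor known from vessels and heart, was at 0.535 and 0.680 FPKM at low density and at 0.252 and 0.237 FPKM at high density, from 70 and 106 and from 35 and 39 reads. The densities did not overlap, a 2.60-fold fall (log2 -1.38, SE 0.29; edgeR quasi-likelihood, adjusted p = 0.000756). So the target with the highest level was lower, HES4 rose and HEY1 fell in the same libraries.

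Because HES1 and HES4 went in different directions with crowding, the sequences just upstream of their starts were set side by side. RefSeq promoters (GRCh38.p14) were at hand for 7 of the 10 genes, namely NOTCH1, NOTCH2, NOTCH3, JAG1, JAG2, HES1 and HES4. The 250 bases before the start are shown for the 2 targets, 5′ to 3′ on the strand of the gene, with each TGGGAA, the core of the sequence that RBPJ binds, in capitals. HES1 is at chr3:194135898-194136147 on the plus strand and HES4 at chr1:1000098-1000347 on the minus strand.
HES1: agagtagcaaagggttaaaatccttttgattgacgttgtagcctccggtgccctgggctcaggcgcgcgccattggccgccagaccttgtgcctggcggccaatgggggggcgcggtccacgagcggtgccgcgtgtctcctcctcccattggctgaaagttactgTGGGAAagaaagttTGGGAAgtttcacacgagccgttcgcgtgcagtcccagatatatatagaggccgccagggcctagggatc
HES4: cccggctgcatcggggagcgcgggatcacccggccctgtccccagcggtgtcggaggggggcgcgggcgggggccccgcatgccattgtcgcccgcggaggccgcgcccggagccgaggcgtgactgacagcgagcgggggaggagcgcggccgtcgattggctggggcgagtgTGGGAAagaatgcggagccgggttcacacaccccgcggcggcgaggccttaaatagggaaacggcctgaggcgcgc
TGGGAA was searched on both strands. HES1 held 2 matches, 84 and 70 bases before the start, and HES4 held 1 match, 76 bases before it. In both genes a match lay within a shared run of 12 bases, TGTGGGAAAGAA, which began 86 bases before the start of HES1 and 78 bases before that of HES4, the longest run the windows had in common. Of 35116 promoter windows of the same length, 20.8% held TGGGAA at least once and 2.9% at least 2 times. None of the 5 receptor and Jagged windows held it. The N-box CACNAG, which HES proteins bind, occurred 3 times in HES1 (165, 132 and 58 bases before the start), once in NOTCH3 and not in HES4, and in 32% of all windows. The site AGGAAG, bound by PEA3 proteins, occurred once in NOTCH2, 107 bases before the start, and in 28.7% of all windows. The letters of these motifs can overlap only at their ends, and no window of these 7 genes held both AGGAAG and TGGGAA. Outside the 10 genes, the window of HES3 held both, that of HEY2 held TGGGAA once and that of HEYL 2 times. The windows of NOTCH4, DLL4, HES2, HES6 and NRARP held no TGGGAA. These matches describe letters in one window and no binding.

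The genes called after ETV4 KD were not those called after crowding, although with all libraries in NOTCH2 was lower at an edgeR adjusted p below 0.05 in both. The ligand DLL3 and the receptor NOTCH2 were lower and the target HES1 was higher, so that 3 of the 10 were called, 1 higher and 2 lower, where 13.0% of the 17879 genes tested were called, 5.88% higher and 7.10% lower. The same 3 were those with an adjusted p below 0.05 at any fold, against 21.5% of all genes. The median log2 fold change of the 10 was -0.13, with 7 of them below 0, and that of all genes tested was 0.00 after rounding.

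Among the receptors, NOTCH2 was at 10.1 and 8.28 FPKM in shControl and at 7.10 and 5.25 FPKM in shETV4. The groups did not overlap, but replicate 2 was the lower library of each pair, and the log2 fold change was -0.57 (SE 0.14; edgeR quasi-likelihood, adjusted p = 0.0226). The call ended without shControl replicate 1 (log2 -0.41, adjusted p = 0.0556, edgeR) and without shETV4 replicate 2 (log2 -0.40). NOTCH2 has a longest transcript of 11425 bases, and the 1600 tested genes with one over 8000 bases had a median change of -0.10 (log2) after ETV4 KD and were lower in replicate 2 than in replicate 1 by medians of -0.12 in shControl and -0.17 in shETV4. The part of transcript length in the value of NOTCH2 was not tested. NOTCH2NLA, a partial copy of NOTCH2 with near-identical sequence, was at 2.40 and 1.98 FPKM in shControl and at 1.59 and 1.26 FPKM in shETV4 and was called too (log2 -0.62; edgeR quasi-likelihood, adjusted p = 0.0265), so how reads were split between the copies is uncertain.

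NOTCH1 was at 8.47 and 7.44 FPKM in shControl and at 7.92 and 7.00 FPKM in shETV4, and the groups overlapped (log2 -0.09, 95% interval -0.27 to 0.09). NOTCH3 was at 12.4 and 12.3 FPKM in shControl and at 11.0 FPKM in both shETV4 libraries. Its groups did not overlap, as in 63.3% of all genes, and the log2 fold change of -0.16 (SE 0.073; edgeR quasi-likelihood, adjusted p = 0.143) did not pass. The receptor sum was 31.0 and 28.0 FPKM in shControl and 26.0 and 23.2 FPKM in shETV4.

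The ligand DLL3 had the largest fold of the 10 genes after ETV4 KD. It was at 4.38 and 3.97 FPKM in shControl and at 1.59 and 1.47 FPKM in shETV4, from 572 and 485 and from 219 and 190 reads. All shETV4 values were well below all shControl values, a 2.56-fold fall (log2 -1.36, SE 0.15; edgeR quasi-likelihood, adjusted p = 0.00150). DLL1, by contrast with its response to crowding, was at 0.441 and 0.526 FPKM in shControl and at 0.522 and 0.626 FPKM in shETV4, and these ranges overlapped (log2 0.25, 95% interval -0.20 to 0.70). JAG1 was at 7.32 and 6.62 FPKM in shControl and at 6.86 and 5.58 FPKM in shETV4, which overlapped (log2 -0.16, 95% interval -0.37 to 0.05). JAG2 was at 1.42 and 1.25 FPKM in shControl and at 1.24 FPKM in both shETV4 libraries (log2 -0.10, 95% interval -0.38 to 0.18). The ligand sum was 13.6 and 12.4 FPKM in shControl and 10.2 and 8.92 FPKM in shETV4. DLL3 made up 32.3% and 32.1% of it in shControl and 15.6% and 16.5% in shETV4, and JAG1 made up 54.0% and 53.5% in shControl and 67.1% and 62.5% in shETV4, although JAG1 itself did not pass the test.

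Of the targets, HES1 was at 3.84 and 4.01 FPKM in shControl and at 5.10 and 5.98 FPKM in shETV4. The groups were apart, but the call stood at the edge of both thresholds (log2 0.50, SE 0.15; edgeR quasi-likelihood, adjusted p = 0.0484), and it held in 3 of 13 other settings, which gave log2 fold changes of 0.35 to 0.64 and adjusted p of up to 0.231. HES1 was lower at high density and higher in shETV4, as NES was, though NES in shETV4 fell short of the fold threshold (log2 0.39). The values of OTX2 were higher in both test groups. HES4 was at 0.532 and 0.534 FPKM in shControl and at 0.377 and 0.690 FPKM in shETV4, from 32 and 30 and from 22 and 39 reads. The shETV4 libraries lay on either side of the shControl libraries, and the fold could not be fixed at this depth (log2 0.00, 95% interval -0.82 to 0.82). HEY1 was at 0.472 and 0.681 FPKM in shControl and at 0.425 and 0.331 FPKM in shETV4, from 68 and 86 and from 61 and 46 reads. Both shETV4 libraries were below both shControl libraries, with a log2 fold change of -0.52 that did not pass (SE 0.29; edgeR quasi-likelihood, adjusted p = 0.231).

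**Figure D3:**
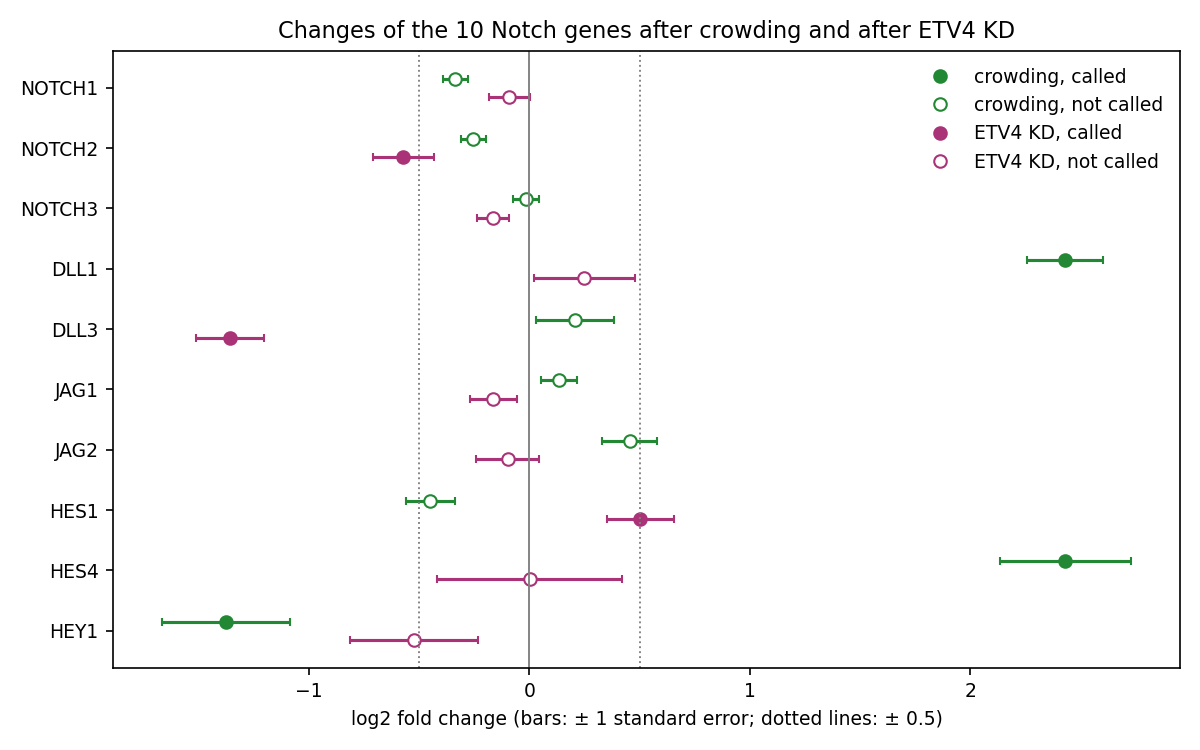
Log2 fold changes of the 10 Notch genes after crowding (high density against low density) and after ETV4 KD (shETV4 against shControl), with bars of 1 standard error; filled points were called and dotted lines mark a log2 fold change of 0.5 in each direction. Filled are DLL1, HES4 and HEY1 after crowding and DLL3, NOTCH2 and HES1 after ETV4 KD. With all libraries in, NOTCH2 was lower in both experiments at an edgeR adjusted p below 0.05.

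The responses in the 2 experiments were compared directly for each gene, as the log2 fold change after crowding minus that after ETV4 KD in 1 edgeR model of all 8 libraries, each experiment keeping its own controls. The responses of 5 of the 10 genes differed at an adjusted p below 0.05 by the quasi-likelihood test, against 38.5% of the 17790 genes tested. The difference was 2.17 for DLL1 (SE 0.29, edgeR adjusted p = 0.000161) and 2.42 for HES4 (SE 0.50, edgeR adjusted p = 0.00242), the genes that rose with crowding. It was 1.56 for DLL3 (SE 0.26, edgeR adjusted p = 0.000717), which fell after ETV4 KD. HES1 had a difference of -0.96 (SE 0.18, edgeR adjusted p = 0.00126), lower with crowding and higher after ETV4 KD. JAG2 had one of 0.55 (SE 0.18, edgeR adjusted p = 0.0323), which did not pass without low-density replicate 1, low-density replicate 2, high-density replicate 2 or shControl replicate 1. The difference for HEY1 was -0.86 (SE 0.39, edgeR adjusted p = 0.0998), so its responses were not shown to differ although it was called only after crowding. The differences for NOTCH1 (-0.25), NOTCH2 (0.31), NOTCH3 (0.14) and JAG1 (0.29) did not pass either, with edgeR adjusted p from 0.0867 to 0.246.

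The other HES and HEY genes carried most of the family's transcripts. HES3, a HES gene of the early neuroepithelium, was at 9.39 and 9.57 FPKM at low density and at 42.6 and 43.4 FPKM at high density. The groups were far apart and the replicates close, with a fold of 4.35 (log2 2.12; edgeR quasi-likelihood, adjusted p = 3.04e-13). HEY2, a HEY gene of the heart and vessels, was at 3.66 and 3.34 FPKM at low density and at 6.85 and 6.73 FPKM at high density (log2 0.90; edgeR quasi-likelihood, adjusted p = 2.55e-07). HES2, from 16 and 34 reads at low density and 43 and 65 at high density, was called as well (log2 0.98; edgeR quasi-likelihood, adjusted p = 0.0383) but not by DESeq2 (adjusted p = 0.140). HES6, which opposes HES1 and was the highest HES gene at low density, was at 16.4 and 17.4 FPKM there and at 16.3 and 18.1 FPKM at high density, which overlapped. HEYL (0.716 and 0.811 against 0.663 and 1.03 FPKM) also overlapped, and the receptor NOTCH4 stayed at or below 0.245 FPKM, with neither called. DLL4, HES5 and HES7 were not analysed here after crowding.

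Summed over the 8 HES and HEY genes of the tables, FPKM rose from 37.5 and 38.7 at low density to 73.5 and 77.1 at high density. HES3 was 25.0% and 24.8% of the sum at low density and 58.0% and 56.3% at high density, whereas HES1 went from 17.0% and 16.5% to 6.61% and 6.32%. The sum after ETV4 KD was 33.0 and 36.1 FPKM, beside 30.5 and 32.6 FPKM in shControl. There HES3 went from 6.54 and 6.29 FPKM to 9.09 and 9.15 FPKM (log2 0.51; edgeR quasi-likelihood, adjusted p = 0.0462). HEYL went from 1.54 FPKM in both shControl libraries to 1.12 and 0.755 FPKM and was called lower (log2 -0.71; edgeR quasi-likelihood, adjusted p = 0.0368). HEY2 went from 4.95 and 4.32 FPKM to 3.62 and 2.98 FPKM, and its log2 fold change of -0.49 fell short of the fold threshold (edgeR quasi-likelihood, adjusted p = 0.0415). NOTCH4 (log2 -0.74), DLL4 (0.58), HES2 (0.53) and HES6 (0.09) were not called. The responses to crowding and to ETV4 KD differed for HES3 by 1.61 and for HEY2 by 1.38 (edgeR adjusted p = 9.59e-06 and 8.21e-05).

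**Figure D4:**
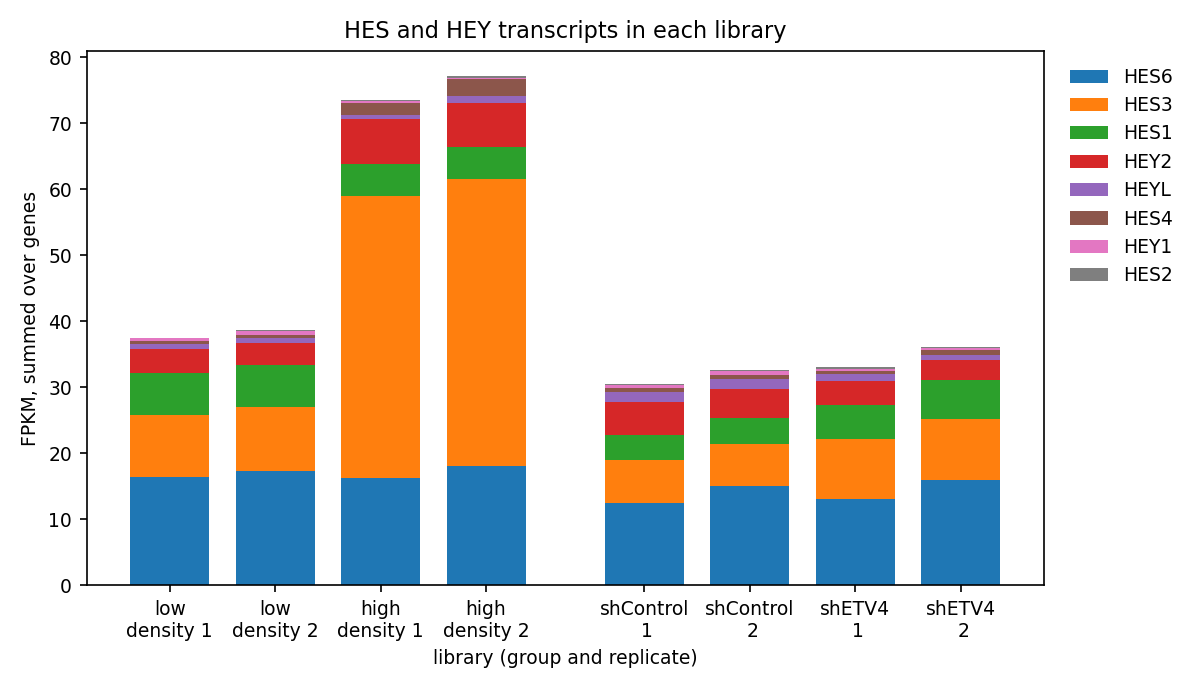
FPKM of the 8 HES and HEY genes in both tables, stacked, in each of the 8 libraries. The bars reach 37.5 and 38.7 FPKM at low density and 73.5 and 77.1 FPKM at high density, and HES3 makes up 56.3% to 58.0% of the latter.

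Beyond receptors, ligands and targets, 81 genes in 10 lists cover the rest of the pathway, the NOTCH and HES/HEY family outside the 10 genes among them. After crowding 68 of them were tested, 8 were called higher and 2 lower, near the share of all genes called (16.1%), and their median log2 fold change was 0.05. Of 8 genes of the nuclear complex, 6 had a log2 fold change below 0 and 2 passed the adjusted p, both lower, where 39.7% of all genes passed it. RBPJ, the DNA-binding part of the complex, was at 44.6 and 44.1 FPKM at low density and at 41.3 and 43.7 FPKM at high density (log2 -0.12; edgeR quasi-likelihood, adjusted p = 0.0902). The only call in this list was the coactivator MAML2, at 1.57 and 1.65 FPKM at low density and 1.09 and 1.18 FPKM at high density (log2 -0.56; edgeR quasi-likelihood, adjusted p = 0.000327), and the acetyltransferase CREBBP passed at a smaller fold (log2 -0.34; edgeR quasi-likelihood, adjusted p = 0.000203). Among 9 genes of receptor cleavage, 5 of receptor glycosylation and 12 corepressors none was called, though 1, 3 and 3 of them passed the adjusted p at a smaller fold. LFNG is one of these, a glycosyltransferase that tunes receptors towards Delta ligands, at 6.76 and 7.41 FPKM at low density and 9.19 and 9.22 FPKM at high density (log2 0.32; edgeR quasi-likelihood, adjusted p = 0.00320). LFNG and CREBBP were named after their values were seen.

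Other and inhibitory ligands went both ways with crowding. DNER, a neuronal transmembrane ligand, was at 1.76 and 2.05 FPKM at low density and at 0.760 and 0.885 FPKM at high density (log2 -1.26; edgeR quasi-likelihood, adjusted p = 5.03e-06). CNTN1, a neural adhesion protein described as a Notch ligand, was at 1.53 and 1.43 FPKM at low density and at 2.46 and 2.69 FPKM at high density (log2 0.74; edgeR quasi-likelihood, adjusted p = 9.53e-06). Of 13 ubiquitin ligases and endocytosis genes, only NEURL1B was called, a ligase of the Neuralized family that acts on ligands, at 1.82 and 1.61 FPKM at low density and 2.42 and 2.97 FPKM at high density (log2 0.64; edgeR quasi-likelihood, adjusted p = 4.46e-05). The feedback gene NRARP, itself a Notch target, was at 8.06 and 9.13 FPKM at low density and at 12.3 and 12.8 FPKM at high density. This difference (log2 0.49) passed the adjusted p (3.71e-05, edgeR quasi-likelihood) and not the fold, and NRARP too was named after its values were seen. Among 8 proneural factors and ID proteins 3 were called higher and none lower, where 10.7% of all genes tested were called higher and 5.47% lower. Of these 3, ID2 (log2 0.76; edgeR quasi-likelihood, adjusted p = 0.00011) and ID4 (log2 0.72; edgeR quasi-likelihood, adjusted p = 0.00106) encode inhibitors of bHLH factors. The remaining call, ATOH1, is a proneural factor that stayed at or below 0.600 FPKM, and it is named only to complete the count.

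After ETV4 KD 69 of the pathway genes were tested, 6 were called higher and 5 lower, near the share of all genes called (13.0%), and their median log2 fold change was 0.02. RBPJ was at 51.8 and 47.1 FPKM in shControl and at 46.0 and 36.7 FPKM in shETV4 (log2 -0.25; edgeR quasi-likelihood, adjusted p = 0.109). MAML2 was again lower, at 1.62 and 1.72 FPKM in shControl and 1.11 and 1.00 FPKM in shETV4 (log2 -0.65; edgeR quasi-likelihood, adjusted p = 0.0102). The ubiquitin ligases held 5 of the 11 calls. NEURL1B fell from 2.64 and 2.52 FPKM to 1.26 and 0.992 FPKM (log2 -1.20; edgeR quasi-likelihood, adjusted p = 0.00148), and its relative NEURL1, under 1 FPKM in every library and named to complete the count, was higher (log2 2.29; edgeR quasi-likelihood, adjusted p = 0.00176). DTX3L, of the Deltex family, fell from 4.14 and 3.90 FPKM to 2.62 and 1.88 FPKM (log2 -0.84; edgeR quasi-likelihood, adjusted p = 0.00693), whereas its relative DTX3 rose from 11.3 and 12.9 FPKM to 16.9 and 19.2 FPKM (log2 0.58; edgeR quasi-likelihood, adjusted p = 0.0113). MIB2, a Mind bomb ligase that helps ligands into endocytosis, rose from 3.97 and 3.94 FPKM to 5.13 and 6.67 FPKM (log2 0.67; edgeR quasi-likelihood, adjusted p = 0.0257). ID2 rose (log2 0.53; edgeR quasi-likelihood, adjusted p = 0.0184), and ID1 did so by edgeR (log2 0.75, adjusted p = 0.0455) and not by DESeq2 (adjusted p = 0.157), with shETV4 values of 18.4 and 31.1 FPKM. NRARP, higher with crowding, went from 11.9 and 12.1 FPKM in shControl to 9.87 and 9.12 FPKM in shETV4. This difference (log2 -0.33) passed the adjusted p (0.030, edgeR quasi-likelihood) and not the fold. No gene of the receptor cleavage, receptor glycosylation, corepressor or other ligand lists was called.

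**Figure D5:**
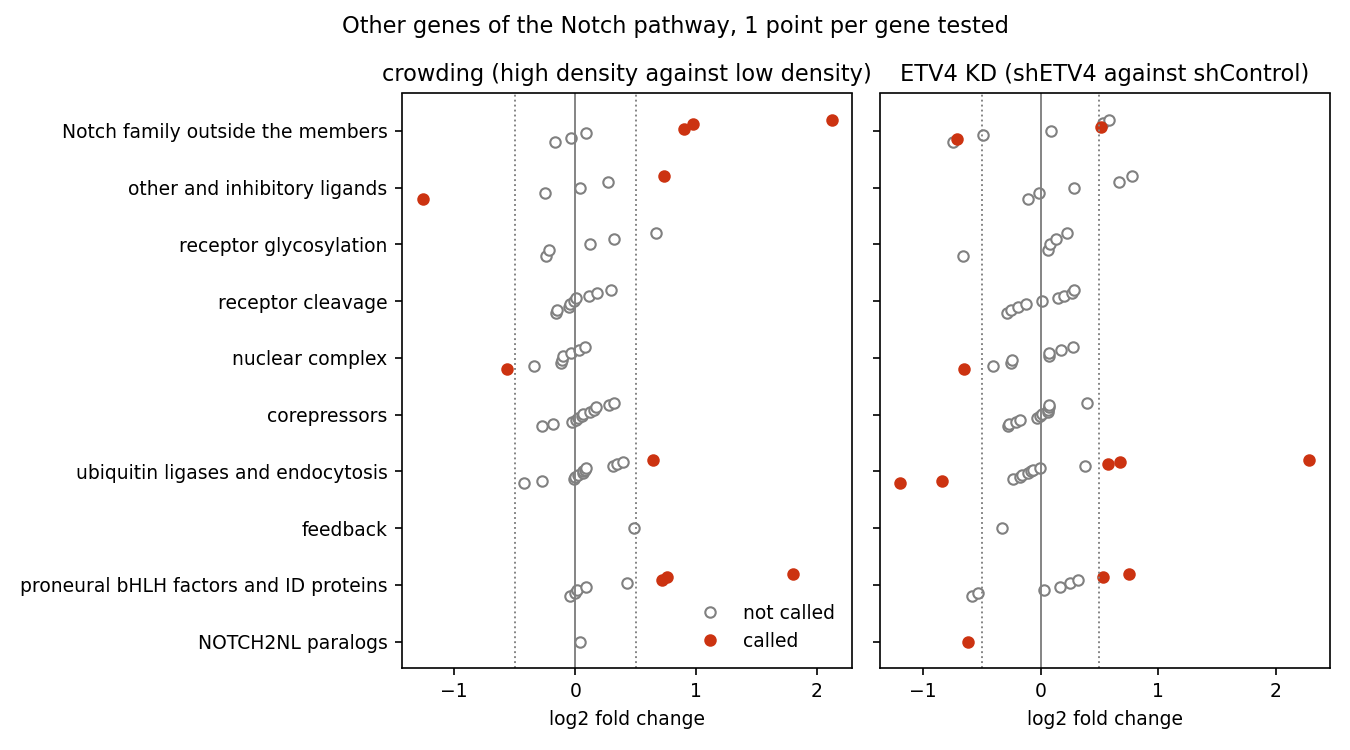
Log2 fold changes of the tested genes of 10 pathway lists, 1 point per gene, after crowding on the left and after ETV4 KD on the right; filled points were called and dotted lines mark a log2 fold change of 0.5 in each direction. Calls lie in the Notch family, the ligands, the nuclear complex, the ubiquitin ligases, the proneural and ID list and, after ETV4 KD, the NOTCH2 copy.

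The genes that most resembled each called Notch gene over the 8 libraries were found by the root mean square (RMS) difference of log2 CPM (read counts scaled to equal library size), centred within each table, among 12923 genes with a mean of at least 1 FPKM. DLL1 was nearest to SOX21-AS1 (RMS 0.191) and PAPLN (0.193), which had log2 fold changes of 2.46 and 2.70 after crowding. HES4 was nearest to HSD17B14 (0.216) and ESYT2 (0.261), HEY1 to COL5A2 (0.124) and MT1E (0.132), and DLL3 to TRHDE-AS1 (0.0996) and EPHX2 (0.126). HES1 was nearest to POLR3C (0.0155) and CAPNS1 (0.0320), and NOTCH2 to MAP3K1 (0.0367) and IGF1R (0.0452). With 8 libraries in 4 groups, a small RMS difference says only that 2 genes had like values in these libraries.

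In GRCh37, the build of the deposited tables, the genes lie on separate chromosomes for the most part. Of the receptors, NOTCH1 spans bases 139388885 to 139440500 of chromosome 9, NOTCH2 bases 120454176 to 120643366 of chromosome 1 and NOTCH3 bases 15269849 to 15311806 of chromosome 19, all on the minus strand. Of the ligands, DLL1 spans bases 170591294 to 170615653 of chromosome 6, JAG1 bases 10618332 to 10654647 of chromosome 20 and JAG2 bases 105607319 to 105635161 of chromosome 14, on the minus strand, and DLL3 bases 39989535 to 39999121 of chromosome 19 on the plus strand. Of the targets, HES1 spans bases 193853937 to 193856521 of chromosome 3 on the plus strand, and HES4 bases 934342 to 935552 of chromosome 1 and HEY1 bases 80674606 to 80680092 of chromosome 8 on the minus strand. JAG1 shares 306 exonic bases with an lncRNA gene on the opposite strand and JAG2 469 with one on its own strand, so their counts are uncertain too. For JAG2, counting by strand would not part the reads.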

How the data were processed

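Poly-A RNA was sequenced in 8 libraries of 2 experiments. The authors used a stranded kit, trimmed reads (Trimmomatic), aligned them to GRCh37 (HISAT2 2.1.0) and quantified known transcripts (StringTie 2.1.3b), as the submitters' processing notes list. For each experiment the authors deposited raw read counts of each gene and its FPKM, which scale by length and by library. Each gene in a table has at least 1 read in each of its 4 libraries. The authors' fold changes and p-values, and 16 further columns of per-sample values, were not used. Groups came from the sample labels.

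Counts were tested within each table with the quasi-likelihood test of edgeR 4.0.16 (R 4.3.3) after filterByExpr and TMM, with robust dispersions and Benjamini-Hochberg adjustment over all genes tested. The SE of a log2 fold change is its size over the root of F. With 2 libraries against 2, an exact permutation test of a single gene cannot go below p = 0.333, and p-values rest on dispersions shared across genes. Replicate libraries differed by more than counting error, with a chi-square of 5.68 to 22.7 for each degree of freedom. This does not show whether they were separate cultures. Alternatives were DESeq2 1.42.0, limma 3.58.1 on log2(FPKM + pseudocount), other filters and thresholds, the replicate number as a block, and each library left out. The tests were tried on simulated counts, where limma on FPKM and the DESeq2 test of the difference between responses made more false calls than their nominal rate.

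The 10 genes and the pathway and marker lists were chosen with earlier results of these data known. Named genes were the 10 genes in every library, the rest of the Notch family, pathway genes called with a mean of at least 1 FPKM in a group, RBPJ, ETV4 and the 2 nearest genes of each called gene. Positions are from GENCODE v44 lifted to GRCh37.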

Additional observations from a re-analysis of the deposited data

How the results depend on the processing

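DLL1 and HES4 after crowding and DLL3 after ETV4 KD were called in all 13 other settings, and HEY1 after crowding in the 10 settings that tested it (its mean FPKM was below the minimum of 0.5 used with limma). Of the 10 genes, 7 passed after crowding with the adjusted p alone, and 1 was called after ETV4 KD with limma without a minimum or at an absolute log2 fold change over 1. Leaving out each library in turn gave 3 to 4 calls after crowding, 1 to 3 after ETV4 KD (1 without shControl replicate 1 or shETV4 replicate 2) and 4 to 7 differences between responses. Calls among the other pathway genes after crowding were 6 with limma on log2(FPKM + 1), 3 at an absolute log2 fold change over 1, 26 with the adjusted p alone and 8 to 12 with a library left out. After ETV4 KD they were 4 with limma on log2(FPKM + 0.5), 7 with 0.1 in its place, 3 with 1, 4 without a minimum, 2 at an absolute log2 fold change over 1, 18 with the adjusted p alone and 5 to 14 with a library left out.

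Directions turned for values near 0. NOTCH3 after crowding was 0.04 in each limma fit (0.0405, 0.0412, 0.0395 and 0.0405) and -0.0895 to 0.0613 with a library left out, and DLL3 after crowding was -0.16 to 0.50. HES4 after ETV4 KD was -0.0031 with a minimum of 10 counts, -0.0439 with the replicate block, -0.0157, -0.0437, -0.0069 and -0.0157 with limma, and -0.54 to 0.41 with a library left out. NOTCH1 and JAG2 after ETV4 KD were -0.19 to 0.0187 and -0.19 to 0.0087 with a library left out. NOTCH2 after ETV4 KD lost its call with limma without a minimum (-0.54, adjusted p = 0.0825). The causes were not tested.

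Across all genes the deviations of same-numbered replicates were nearly uncorrelated (-0.041 after crowding and 0.086 after ETV4 KD), and the labels give only a number. In the ETV4 KD experiment, however, genes with a longest transcript over 8000 bases were lower in replicate 2 within shControl and within shETV4 (median log2 -0.12 and -0.17). A pairing by number can therefore not be set aside there, and the block is given as an alternative. With the replicate block 3 of the 10 genes were called after crowding, 2 after ETV4 KD and 8 responses differed, 10 and 15 of the other pathway genes were called, and calls over all genes were 2874 and 2901. Over all genes, 2851 calls after crowding became 1717, 2081 and 1256 with limma (pseudocounts 0.5, 0.1 and 1), 1135 at an absolute log2 fold change over 1 and 7016 with the adjusted p alone, and 2321 after ETV4 KD became 1703, 1877, 1325, 761 and 3847. Counts of 20 to 39 reads limit HES4 outside high density, and the spread between 2 libraries limits the other genes.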

Other observations

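The receptor makeup shifted less than the ligand makeup. NOTCH3 was 48.3% and 48.5% of the summed receptor FPKM at low density and 54.6% and 51.8% at high density, and NOTCH1 was 28.6% and 29.5% at low density and 24.4% and 26.8% at high density. After ETV4 KD, NOTCH2 was 27.3% and 22.6% of the sum, beside 32.5% and 29.5% in shControl. Among the 3 targets HES1 was 87.8% and 85.9% of their sum at low density and 70.6% and 63.9% at high density, and HES4 was 4.88% and 5.01% at low density and 25.8% and 33.0% at high density. These shares are values without a test.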
